A study of Mus musculus with 3 samples.

Results

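The genes described here encode the subunits of the mitochondrial respiratory chain and of the ATP synthase. They were taken by name from the probes of a mouse genome array, as every name that begins with Ndufa, Ndufb, Ndufc, Ndufs, Ndufv, Uqcr, Atp5 or Cox followed by a digit, and the succinate dehydrogenase genes Sdha, Sdhb, Sdhc and Sdhd. The rule found 84 names on 96 probes, out of 19459 genes on 24392 named probes, and Sdhc was not among the names. Of these, 72 are subunits: 34 of complex I, 3 of complex II, 7 of complex III, 16 of complex IV and 12 of complex V. A further 8 are assembly factors, and 4 carry a similar name without being a subunit in current use (Cox7a2l, Ndufa4l2, Cox4nb, now Emc8, and Atp5s, now Dmac2l).

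RNA of whole ovaries of C57BL/6 mice was hybridised to 3 arrays with 2 colours, 1 array for each treated group. In the ADSC2 group, mice of a premature ovarian failure (POF) model had adipose-derived stem cells (ADSCs) placed directly into both ovaries. In the ADSC1 group, POF mice received ADSCs through a vein, and in the POF group, mice had cyclophosphamide, a cytotoxic drug that depletes ovarian follicles, with no cells named. WT mice were normal and untreated, and their RNA, in the Cy3 channel, was set against the Cy5-labelled RNA of each treated group. Ovaries were taken 1 week after treatment. The model was thus shared by ADSC2, ADSC1 and POF mice, and no group that received cells without the model is among the samples. The labels do not state the age of the mice, the number of animals behind an array, whether WT RNA was 1 pool, or the dose of drug or cells.

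With 1 array a group there was no replicate, so no difference below has a test or a p-value. In bulk tissue, fewer cells of a type and less RNA per cell cannot be told apart.

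The respiratory chain passes electrons from NADH (complex I) and succinate (complex II) through complex III and cytochrome c to oxygen at complex IV, and complexes I, III and IV pump protons across the inner mitochondrial membrane. The ATP synthase, complex V, lets the protons return through its membrane part, Fo, and makes ATP in its catalytic part, F1. Complex I is built from conserved core subunits, which carry the flavin and the iron-sulfur clusters or form the proton pumps, and from many small accessory subunits. The core of complex IV and much of the membrane core of complex I are encoded in mitochondrial DNA, so the nuclear genes of complex IV described here are all accessory. In the ovary, oocytes and steroid-producing cells are rich in mitochondria, and the mitochondria of the oocyte pass to the embryo.

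Nuclear genes of the chain are known targets of the factors NRF1, GABPA, YY1 and ERRA. Promoters of 68 of the 84 members stood in the RefSeq table used (build GRCm38.p6), each from 250 bases before to 50 bases after the start site. The letters GCGCATGCG, from an NRF1 site, were found on either strand in 7 of the 68 promoters (10.3%), against 1.95% of the 27025 genes in the table. AAGATGGCG, from a YY1 site, stood in 8 (11.8%, against 1.64% of all genes), CCGGAAGTG, a GABPA site, in 4 (5.88%, against 2.25%), and TCAAGGTCA, an ERRA site, in 2 (2.94%, against 0.466%). No match overlapped a match to another motif. Of the YY1 matches, only that of Atp5j lay before the start site, and the others began 21 to 35 bases after it. The matches in Uqcrc1 (NRF1), Cox15 (GABPA) and Sdhd (ERRA) also lay after it. A match describes the letters only. The stretches below, 60 bases each and all before the start site, show 1 or more examples of each motif, in capitals, in subunit genes whose values are given further on. In the NRF1 examples the letters are found on both strands, 1 base apart, and the capitals cover both.

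Atp5g2 (chr15:102671056-102671115, minus strand, NRF1): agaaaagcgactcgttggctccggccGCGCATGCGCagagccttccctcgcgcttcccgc
Atp5k (chr5:108434416-108434475, minus strand, NRF1): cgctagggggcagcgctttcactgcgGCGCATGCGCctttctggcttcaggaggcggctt
Cox6a1 (chr5:115349087-115349146, minus strand, NRF1): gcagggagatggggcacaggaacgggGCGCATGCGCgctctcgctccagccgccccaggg
Ndufa11 (chr17:56717676-56717735, plus strand, NRF1): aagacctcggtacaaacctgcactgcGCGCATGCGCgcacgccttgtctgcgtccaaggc
Uqcrh (chr4:116075071-116075130, minus strand, GABPA, read on the other strand): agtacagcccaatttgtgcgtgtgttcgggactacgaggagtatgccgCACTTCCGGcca
Atp5j (chr16:84835031-84835090, minus strand, YY1): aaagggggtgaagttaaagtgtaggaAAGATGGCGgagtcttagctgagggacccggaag
Atp5g3 (chr2:73911345-73911404, minus strand, ERRA, read on the other strand): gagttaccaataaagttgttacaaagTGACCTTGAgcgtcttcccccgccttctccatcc

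The members were bright on these arrays. In all 6 channels (Cy5 and Cy3 of 3 arrays), 76 of the 84 were above background, meaning a spot median over the background median plus 2 background SD. The 5 that were above it in no channel were Cox6a2 and Cox8b, the heart and muscle forms of complex IV subunits, Cox8c, known from testis, and the ordinary subunits Ndufb6 and Uqcrq. The median average log2 signal of member probes was 12.8 to 13.0 on the 3 arrays, against 9.93 to 9.95 for all probes above background, and no member probe was saturated. Of the 84 members, 78 had a value on all arrays.

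All values that follow are log2 ratios of the treated group over WT on 1 array, or differences of such ratios between arrays (ADSC2 minus POF, for example). A difference of 0.585 is 1.5-fold. Genes with several probes above background had a median SD of 0.0681 to 0.0982 between the probes of a member, and of 0.145 to 0.165 over all genes. The WT channel gave a second view of the error: after normalization between arrays, the WT signal of a member spanned 0.28 at the median over the 3 arrays, while its ratio spanned 0.36. The spread of WT RNA between arrays was thus of the order of most differences below. Dyes were not exchanged, so a dye effect of a gene is part of every ratio to WT, and it cancels in a difference between arrays.

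The arrays with ADSCs stood above the POF array for most of the members, by small amounts. ADSC2 minus POF was above 0 for 62 of 78 members (background: 50.2% of the 9077 genes measured), with a median of 0.16. ADSC1 minus POF was above 0 for 57 of 78 (background: 49.4% of 9168 genes), with a median of 0.20. Over all genes both medians were 0.00. Both medians of the members stayed above 0 under each of the 8 other ways of processing, at 0.04 to 0.19 and 0.10 to 0.22. The POF array was the lowest of the 3 for 53 of the 78 members and the highest for 12. The same shares over all genes are not given here, so these counts alone do not set the members apart. The 2 differences share the POF array, so a low value there enters both.

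Few single genes differed by much, and 0 of the members reached 2-fold in any of the 6 comparisons. Over all genes, 0.65% were at least 2-fold higher and 0.154% lower in ADSC2 than in POF, and 0.513% higher and 0.349% lower in ADSC1 than in POF. At least 1.5-fold higher in ADSC1 than in POF were 10 of 78 members (background: 4.13% of genes), and 0 were as much lower (background: 3.33%). These 10 were 5 accessory subunits of complex I, 2 subunits of complex IV and 3 of complex V. In the Cy5 channel alone, only Ndufa2 (0.72) and Ndufa6 (0.71) of these 10 reached 1.5-fold. Ndufb7 (0.594) also reached it there, and Uqcrc1 (-0.588) was as much lower. For Ndufa1, Atp5e, Atp5j2 and Atp5k a lower WT signal made up the larger part, at -0.48, -0.38, -0.45 and -0.40. Their Cy5 differences were 0.20, 0.33, 0.27 and 0.24. For the others of the 10 the Cy5 part was the larger. In ADSC2 against POF, 2 members were at least 1.5-fold higher (background: 3.87%) and 2 lower (background: 2.96%). The share of members past 1.5-fold was thus near the background in ADSC2.

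**Figure D1:**
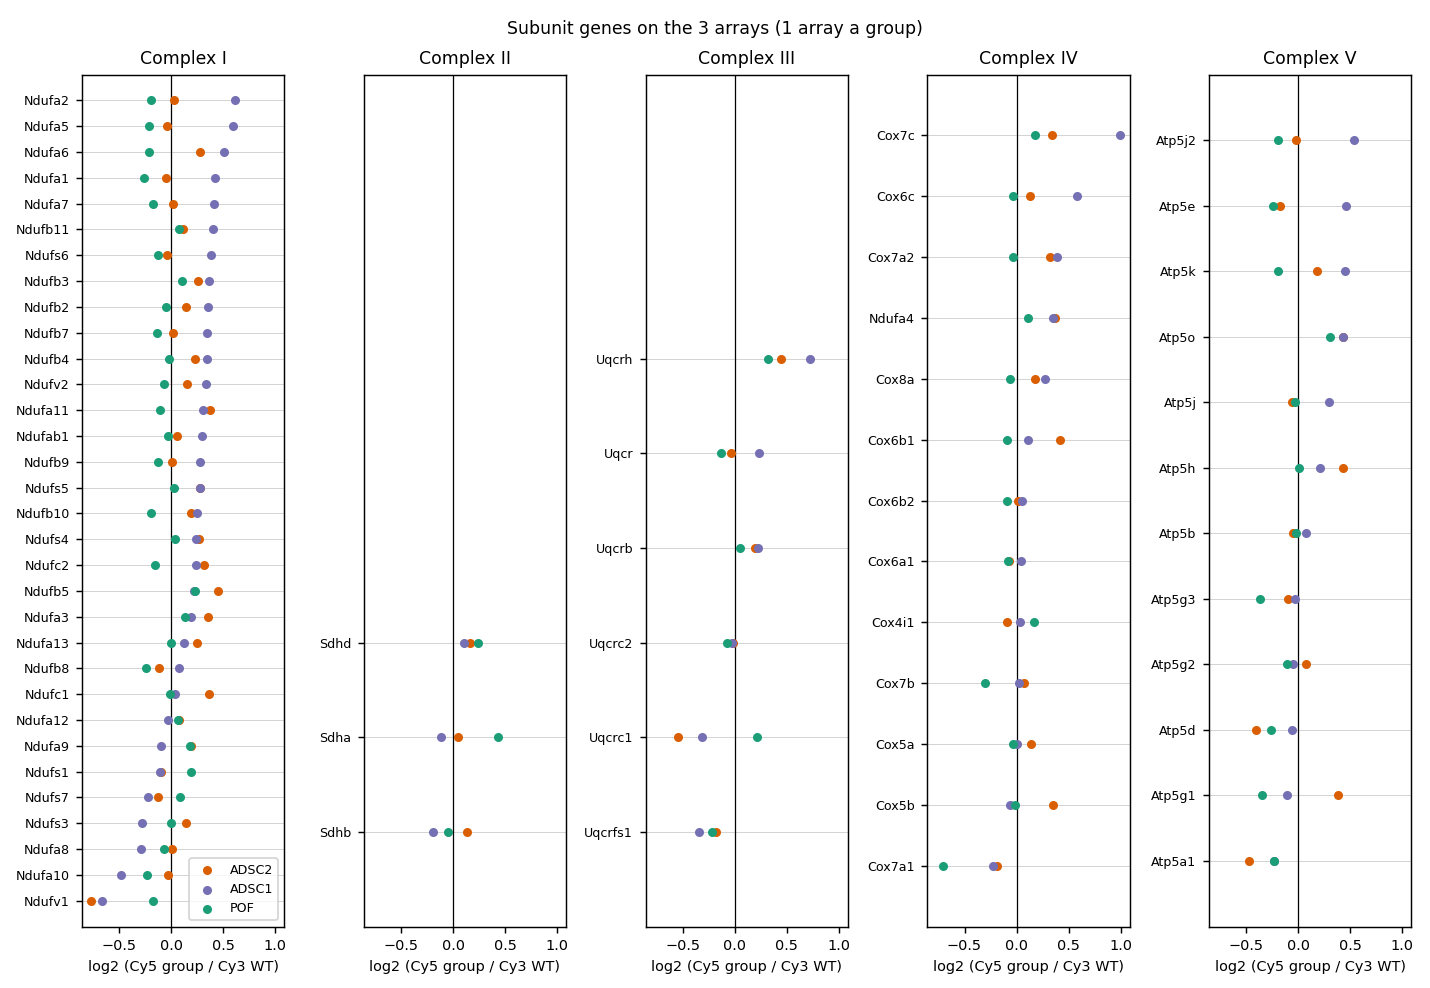
Log2 ratio of each treated group over WT (x axis) for the subunit genes measured on all 3 arrays and named here, by complex, with genes ordered by their value on the ADSC1 array; each point is 1 gene on 1 array (orange ADSC2, purple ADSC1, green POF). The POF points lie left of the others for most genes of complexes I, IV and V, while Uqcrc1, Sdha and Ndufs1 have POF furthest right.

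Part of the members' difference from POF lay in the WT channel, and for ADSC2 the WT part was the larger at the median. Split into channels, the Cy5 signal of the members was 0.04 higher on the ADSC2 array than on the POF array at the median, and the WT signal of the ADSC2 array, less that of the POF array, was -0.13. For ADSC1 and POF the Cy5 median was 0.10 and the WT median -0.09. The Cy5 signal was higher than on the POF array for 45 of 78 members in ADSC2 (background: 4261 of 9077 genes). In ADSC1 it was higher for 49 of 78 (background: 4379 of 9168 genes). A difference of WT RNA and a difference of hybridisation cannot be told apart here.

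Complex I, the entry point for NADH, showed a division between accessory and core subunits. This division was looked at after the values were known. Of the 27 accessory subunits measured, all 27 were above 0 in ADSC2 minus POF, from 0.01 (Ndufa9) to 0.48 (Ndufa6), with a median of 0.21. In ADSC1 minus POF, 22 of 27 were above 0, from -0.28 (Ndufa9) to 0.81 (Ndufa2), with a median of 0.33. Of the 6 core subunits, 2 and 1 were above 0 in the same differences, with medians of -0.25 and -0.29. Under the 8 other ways of processing the accessory medians ran from 0.10 to 0.24 and from 0.17 to 0.35, and the core medians from -0.27 to -0.21 and from -0.40 to -0.18. With the Cy5 channel alone, the smallest of these, 19 and 17 of the 27 accessory subunits were above 0 (background: 4261 of 9077 and 4379 of 9168 genes).

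The highest accessory subunits in ADSC1 were Ndufa2, a small subunit of the matrix arm, and Ndufa5, in the same arm. Ndufa2 had ratios of 0.03 on the ADSC2 array, 0.61 on the ADSC1 array and -0.20 on the POF array, so that ADSC1 stood 0.81 above POF. Ndufa5 had -0.04, 0.59 and -0.22 in the same order, with the same difference of 0.81. For both genes the ADSC1 array stood apart and the other arrays lay nearer to each other. Ndufa6, a further matrix-arm subunit, had 0.27, 0.50 and -0.21, and here both arrays with ADSCs were high. Ndufa1, a small membrane subunit, and Ndufa7 had differences of 0.68 and 0.59 between ADSC1 and POF, and of 0.21 and 0.19 between ADSC2 and POF.

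Further accessory subunits showed how evenly or unevenly the 2 routes stood. Ndufb10 and Ndufc2, membrane subunits, had 0.19 and 0.32 in ADSC2, 0.24 and 0.23 in ADSC1, and -0.19 and -0.16 in POF. Ndufb7, a membrane-arm subunit of the intermembrane space side, had 0.01, 0.35 and -0.14. Ndufb10 and Ndufc2 were thus high on both ADSC arrays, and Ndufb7 on the ADSC1 array. Ndufs4, which is needed for a stable matrix arm, had 0.27, 0.24 and 0.03. Ndufs6 had -0.04, 0.39 and -0.13, and both of its probes placed ADSC1 highest, at 0.45 and 0.32. Ndufa8, Ndufa9 and Ndufa12 were lower in ADSC1 than in POF, at -0.22, -0.28 and -0.09, but at 0.07, 0.01 and 0.01 in ADSC2 against POF. Ndufa11, whose promoter is printed above, is a membrane subunit with ratios of 0.37, 0.31 and -0.11.

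Among the core subunits, Ndufv1, which binds the flavin that takes electrons from NADH, was low on every array. Its ratios were -0.77 in ADSC2, -0.67 in ADSC1 and -0.18 in POF, so that ADSC2 and ADSC1 stood at -0.59 and -0.49 against POF. Ndufs1, the largest subunit with iron-sulfur clusters, had -0.10, -0.11 and 0.19. Ndufs7, which lies at the site where ubiquinone is reduced, had differences of -0.21 in ADSC2 and -0.31 in ADSC1 against POF. Ndufs3, another core subunit, went opposite ways, at 0.15 in ADSC2 and -0.28 in ADSC1 against POF. Ndufv2, a core subunit next to Ndufv1, was the exception, at 0.21 and 0.40 against POF. The mitochondrially encoded mt-Nd1 and mt-Nd4, outside the name rule, are core subunits in the membrane: mt-Nd1 had ratios of 0.43, 0.36 and 0.35, and mt-Nd4 had -0.15, -0.47 and -0.13. The 2 genes had opposite signs on each array.

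**Figure D2:**
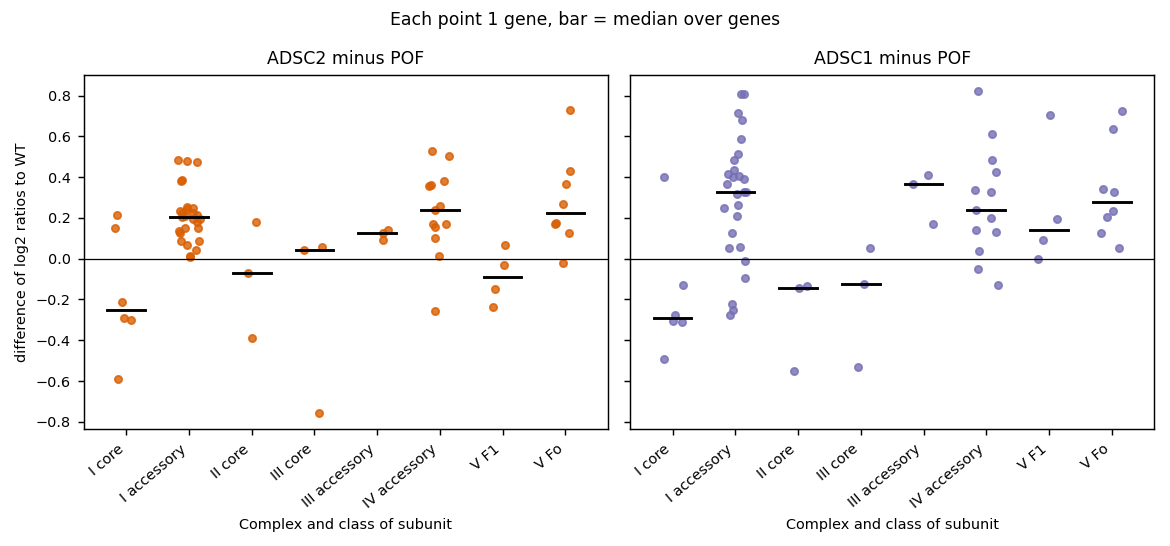
Difference of log2 ratios to WT between ADSC2 and POF (left) and between ADSC1 and POF (right) on the y axis, for subunits grouped by complex and class on the x axis; each point is 1 gene and the bar is the median over genes. Accessory subunits of complexes I, III and IV lie mostly above 0. Of the 12 core subunits of complexes I to III, 7 lie below 0 in ADSC2 and 10 in ADSC1.

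Complex II, succinate dehydrogenase, is also an enzyme of the Krebs cycle. Sdha, its flavin subunit, had ratios of 0.04 in ADSC2, -0.12 in ADSC1 and 0.43 in POF. Its differences from POF were -0.39 and -0.55, the second being the lowest of any member in ADSC1 against POF. Sdhb, the iron-sulfur subunit, had 0.13, -0.19 and -0.05, and Sdhd, a membrane anchor, had 0.16, 0.10 and 0.24. All 3 genes were lower in ADSC1 than in POF, and Sdha and Sdhd were lower in ADSC2. For Sdhb the ADSC2 difference of 0.18 changed to -0.07 in the Cy5 channel alone.

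In complex III, which passes electrons from ubiquinol to cytochrome c, the core protein gene Uqcrc1 was the lowest member in ADSC2 against POF. Its ratios were -0.55 in ADSC2, -0.32 in ADSC1 and 0.21 in POF, giving differences of -0.76 and -0.53 from POF. The WT signal of Uqcrc1 spanned 0.18 over the arrays, and its Cy5 signal alone differed from POF by -0.64 in ADSC2 and -0.59 in ADSC1. Its partner Uqcrc2 was level at -0.02, -0.02 and -0.08. Uqcrfs1, the Rieske iron-sulfur protein, had -0.18, -0.34 and -0.22. Uqcrh, the hinge protein that helps dock cytochrome c, was high on all arrays at 0.44, 0.73 and 0.32. The accessory genes Uqcr (now Uqcr11) and Uqcrb were 0.37 and 0.17 higher in ADSC1 than in POF, and 0.09 and 0.14 higher in ADSC2. Cyc1, the cytochrome subunit of complex III, falls outside the name rule and stood at -0.29 in ADSC2 and -0.26 in ADSC1 against POF. Core subunits of complexes I to III, named by the rule, numbered 12, of which 5 and 2 were above 0 in ADSC2 and in ADSC1 against POF.

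Complex IV, cytochrome c oxidase, is represented by its nuclear subunits. Of 13 measured, 12 were above 0 in ADSC2 against POF (median 0.24) and 11 in ADSC1 against POF (median 0.24). Cox7c, a small membrane subunit, had 0.34 in ADSC2, 0.997 in ADSC1 and 0.17 in POF. Its ADSC1 ratio, just short of 2-fold, was the largest ratio of any member on any array, and 0.38 of its difference of 0.82 from POF was a lower WT signal on the ADSC1 array (-0.38). Cox6c had 0.13, 0.58 and -0.03, and its 2 probes, both above background, had 0.14 and 0.11 on the ADSC2 array, 0.57 and 0.59 on the ADSC1 array, and 0.05 and -0.12 on the POF array.

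Several subunits of complex IV exist as forms for different tissues, and the general forms were above background. Of the tissue forms, Cox6a2, Cox8b and Cox8c rested on 1 probe each. The ordinary subunits Ndufb6 and Uqcrq also gave no signal, so a probe without signal does not show that a form is absent. Cox4i1, the general form of subunit 4, had its highest ratio on the POF array (-0.09 in ADSC2, 0.03 in ADSC1 and 0.16 in POF), although in Cy5 alone ADSC1 stood at 0.05 against POF. Cox6a1, the general form of subunit 6a, was near 0 at -0.07, 0.04 and -0.09, while the muscle form Cox6a2 was not above background. Cox6b1 had 0.42, 0.11 and -0.09. Its testis form Cox6b2 had 1 probe above background, which gave -0.16, 0.14 and -0.33. Cox8a had 0.18, 0.27 and -0.06, and Cox8b and Cox8c were not above background.

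The subunit 7a forms differed in how far POF lay from WT. Cox7a1, the form known from heart and skeletal muscle, was above background in every channel, with -0.18 in ADSC2, -0.23 in ADSC1 and -0.71 in POF. It was the only member at least 1.5-fold lower in POF than in WT (1 of 78; background: 4.1% of 9486 genes), and 0 were as much higher (background: 3.91%). The general form Cox7a2 had 0.32, 0.38 and -0.04, with a WT signal that spanned only 0.02 over the arrays. The muscle markers Actg2, Des, Myh11 and Tnnt2, the 4 of 8 above background, had a median of 0.68 in ADSC2, -0.13 in ADSC1 and 0.44 in POF against WT, and Acta1, Ckm, Mb and Myl2 were not above background. On the POF array these markers lay between 0.15 (Tnnt2) and 0.88 (Des), while Cox7a1 was at -0.71. Cox7b rested on 2 probes that disagreed: the bright probe had 0.32, 0.20 and -0.72, and the probe near background -0.16, -0.15 and 0.11. By the bright probe alone, Cox7b was 1.04 higher in ADSC2 than in POF (over 2-fold) and 0.91 higher in ADSC1.

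In complex V, genes of the Fo part lay higher against POF than genes of the F1 part. Of the 8 genes of Fo and its stalks, 7 were above 0 in ADSC2 minus POF (median 0.22) and 8 in ADSC1 minus POF (median 0.28). Of the 4 genes of F1, 1 and 3 were above 0, with medians of -0.09 and 0.14. Atp5a1 and Atp5b, which form the catalytic hexamer, had ratios of -0.47 and -0.05 in ADSC2, -0.24 and 0.07 in ADSC1, and -0.23 and -0.02 in POF. Atp5e, the smallest F1 subunit, stood out in ADSC1 with -0.18, 0.46 and -0.25. Atp5j2 and Atp5k, small membrane subunits, had -0.02, 0.53 and -0.19, and 0.18, 0.45 and -0.19. Atp5h, a stalk subunit, had 0.43, 0.21 and 0.00, Atp5o, which joins the stalk to F1, had 0.43, 0.43 and 0.30, and Atp5j, another stalk subunit, had -0.06, 0.29 and -0.03.

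The proton-carrying ring of Fo is made of 1 mature protein encoded by 3 genes. Atp5g1 had 0.38 in ADSC2, -0.11 in ADSC1 and -0.34 in POF, and its difference of 0.73 between ADSC2 and POF was the highest of any member in that comparison. Of this, a lower WT signal on the ADSC2 array (-0.52) made up the larger share, against 0.21 in Cy5. Atp5g2 had 0.07, -0.05 and -0.10, and Atp5g3 had -0.10, -0.03 and -0.37. In the Cy5 channel alone Atp5g3 was at -0.02 and -0.01 against POF, and Atp5g1 was at -0.37 in ADSC1. Atp5g3 in both comparisons, and Atp5g1 in ADSC1, thus had another sign in Cy5 alone than in the ratio, while Atp5g2 in both, and Atp5g1 in ADSC2, had the same sign.

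**Figure D3:**
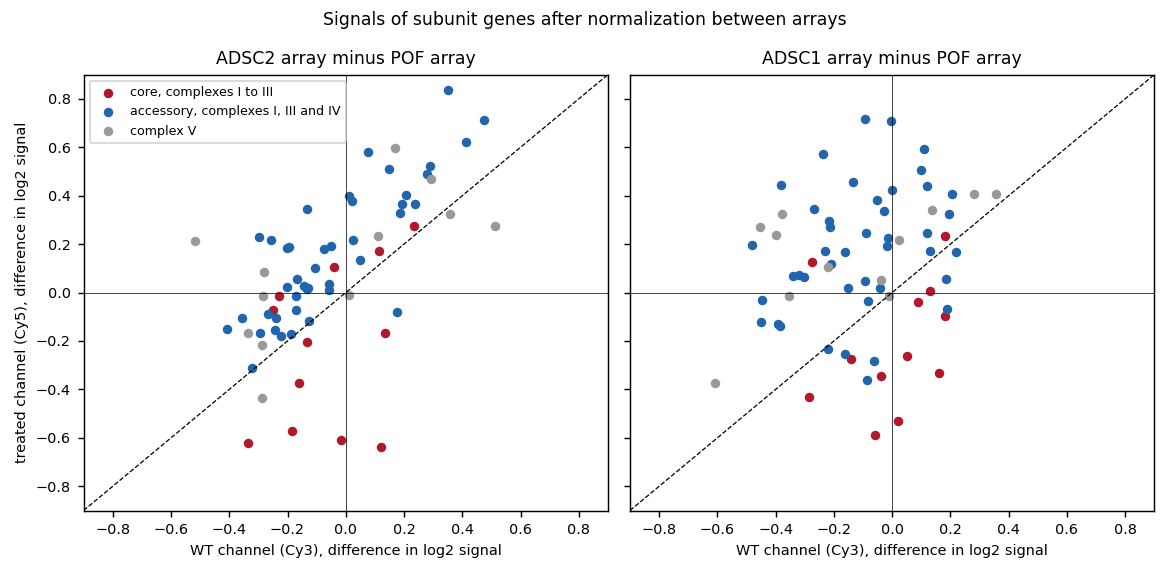
Difference in log2 signal from the POF array for every subunit gene, in the treated channel (Cy5, y axis) and in the WT channel (Cy3, x axis), for the ADSC2 array (left) and the ADSC1 array (right); red points are core subunits of complexes I to III, blue points accessory subunits of complexes I, III and IV, and grey points complex V. Points above the dashed diagonal have a higher ratio than on the POF array. Core subunits lie below it for 7 of 12 genes in ADSC2 and 10 of 12 in ADSC1, many of them low on the y axis. WT differences run from -0.61 to 0.51.

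Of the 8 assembly factors, 6 were above 0 in ADSC2 minus POF (median 0.18; background: 50.2% of genes). In ADSC1 minus POF 6 were also above 0 (median 0.09; background: 49.4%), and Cox15 and Cox18 were below 0 in both. Ndufa12l (now Ndufaf2), which helps to assemble complex I, had 0.59 in ADSC2, 0.40 in ADSC1 and -0.05 in POF, and was one of the members over 1.5-fold above POF in ADSC2. Cox17, a copper carrier for complex IV, had 0.07, 0.23 and -0.27. Cox15, which makes the heme of complex IV, had -0.60, -0.55 and -0.17. Cox15 has 2 probes, and in ADSC2 they gave -0.30 (bright) and -0.90 (dim). Cox11, a copper chaperone, and Cox19 were 0.25 and 0.37 higher in ADSC2 than in POF and 0.16 and 0.12 higher in ADSC1. Cox10, Cox18 and Ndufaf1 lay between -0.15 and 0.11 in both differences from POF. Cox7a2l, which links complexes III and IV, had -0.12, 0.16 and -0.02. Cox4nb, now known as a subunit of an endoplasmic reticulum complex, had 0.11, -0.12 and 0.19. Ndufa4l2 was above background only in the Cy5 channel of ADSC2. Its Cy5 signal on the ADSC2 array was 8.16 on the log2 scale, against 8.30 for WT, which was not above its background limit, so no direction is given. On the POF array, WT RNA gave no signal above background for Cox5b and Atp5s. For Atp5s this gave a bound of at least 1.02-fold for POF over WT, and for Cox5b no fold.

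Against WT, the sign of the members on the POF array depended on the processing. In POF 26 of 78 members were above WT (background: 51.7% of 9486 genes), with a median of -0.05, but the median was 0.07 in the authors' processed values and 0.54 with median centring in place of loess. Members are bright, and median centring does not remove the trend of the ratio with brightness. The medians in ADSC2 (0.08) and ADSC1 (0.14) were above 0 in all settings, with 52 of 79 and 54 of 78 members above WT (background: 50.2% of 9942 and 50.4% of 10156 genes). For ratios to WT the setting of Cy5 alone repeats the main values, so it adds no check here. At least 1.5-fold above WT were Ndufa12l in ADSC2 (1 of 79; background: 6.38%) and Cox7c, Uqcrh, Ndufa2 and Ndufa5 in ADSC1 (4 of 78; background: 6.71%). As much below WT were Ndufv1 and Cox15 in ADSC2 (2 of 79; background: 3.64%) and Ndufv1 in ADSC1 (1 of 78; background: 3.86%). The shares past 1.5-fold were below the background in each. At least 2-fold above and below WT were 0 members, against a background of 2.68% and 0.352% in ADSC2, 2% and 0.551% in ADSC1, and 1.16% and 0.928% in POF.

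Between the routes, the members as a whole lay together and some small subunits lay apart. ADSC2 minus ADSC1 was above 0 for 37 of 78 members (background: 50.4% of 9457 genes), with a median of -0.03 that turned to between 0.00 and 0.02 in 3 settings. At least 1.5-fold lower in ADSC2 were 4 members (background: 2.9%), namely Cox7c (-0.65), Atp5e (-0.64), Ndufa5 (-0.63) and Ndufa2 (-0.585), and 0 were as much higher (background: 3.11%). At least 2-fold higher or lower were 0 members (background: 0.634% and 0.328%). For Cox7c the Cy5 channel alone gave -0.08. The highest were Atp5g1 (0.49), Ndufa10, an accessory subunit of the membrane arm (0.46), Ndufs3 (0.43) and Cox5b (0.41).

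Other parts of energy metabolism were set beside the members. The 14 enzymes of the Krebs cycle, which feeds the chain with NADH and succinate, were lower on the ADSC arrays than on the POF array. Of the 14, 12 were below 0 in ADSC2 minus POF (median -0.30) and 11 in ADSC1 minus POF (median -0.24), under all settings with medians from -0.38 to -0.12 and from -0.40 to -0.15. Dld, a shared subunit of the ketoacid dehydrogenases, was the lowest in ADSC2 (-0.53) and the highest in ADSC1 (0.42), and Idh2, which makes NADPH, was at -0.53 and -0.25. Idh3g (0.21 and 0.12) and Suclg1 (0.21 and 0.17) were above 0 in both. Glycolysis enzymes were below 0 in 12 of 14 and 13 of 15 genes, with medians of -0.16 and -0.23, and against WT in 13 of 14 genes in ADSC2, 14 of 15 in ADSC1 and 14 of 15 in POF. Against WT the glycolysis medians were -0.30 in ADSC2, -0.37 in ADSC1 and -0.13 in POF, each above 0 with median centring (up to 0.16, 0.02 and 0.41).

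Mitochondrial carriers and outer membrane proteins were below 0 in 12 of 15 genes in ADSC2 minus POF and in 13 of 16 in ADSC1 minus POF, with medians of -0.16 and -0.17. Vdac1, the main pore of the outer membrane, was the lowest in ADSC2 (-0.50), and Slc25a5, an ATP/ADP exchanger, the highest (0.22). Slc25a11, the oxoglutarate carrier, was the lowest in ADSC1 (-0.52), and the import receptor Tomm20 the highest (0.28). Regulators of mitochondrial biogenesis had medians of 0.04 and 0.02. Tfam, which packages mitochondrial DNA, was level at 0.00, 0.04 and 0.02 in ADSC2, ADSC1 and POF against WT, and Ppargc1a, Ppargc1b and Gabpa were not above background. Thus the members, and not every list of mitochondrial genes, lay above 0 against POF.

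Cytochrome c and coenzyme Q genes had medians of -0.09 and -0.03 against POF, with 9 of 16 genes below 0 in each. Cycs, the somatic cytochrome c, was the highest in ADSC2 at 0.69, and Coq8a, a coenzyme Q biosynthesis factor, the lowest at -0.55. Cyct, the testis form, was above background only in the Cy5 channel of ADSC1. In ADSC1 minus POF the extremes belonged to Coq4, another coenzyme Q factor (0.58), and Etfdh, which passes electrons from fatty acid oxidation (-0.57). Assembly factors outside the name rule had medians of -0.05 and -0.10, with the complex IV factor Coa4 the highest in both (0.76 and 0.65). The lowest were Timmdc1 in ADSC2 (-0.41), a complex I factor, and, of genes above background in every channel, Foxred1 in ADSC1 (-0.55), another complex I factor. Taco1, which activates translation of a mitochondrial subunit of complex IV, had a still lower difference in ADSC1, but on the POF array its WT channel did not pass the background limit. Atpif1, the inhibitor of the ATP synthase, had 0.64 in ADSC2, 0.52 in ADSC1 and 0.22 in POF against WT. Ucp2, an uncoupling protein family member, had -0.57, -0.40 and -0.32, and Ucp1 and Ucp3 were not above background.

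**Figure D4:**
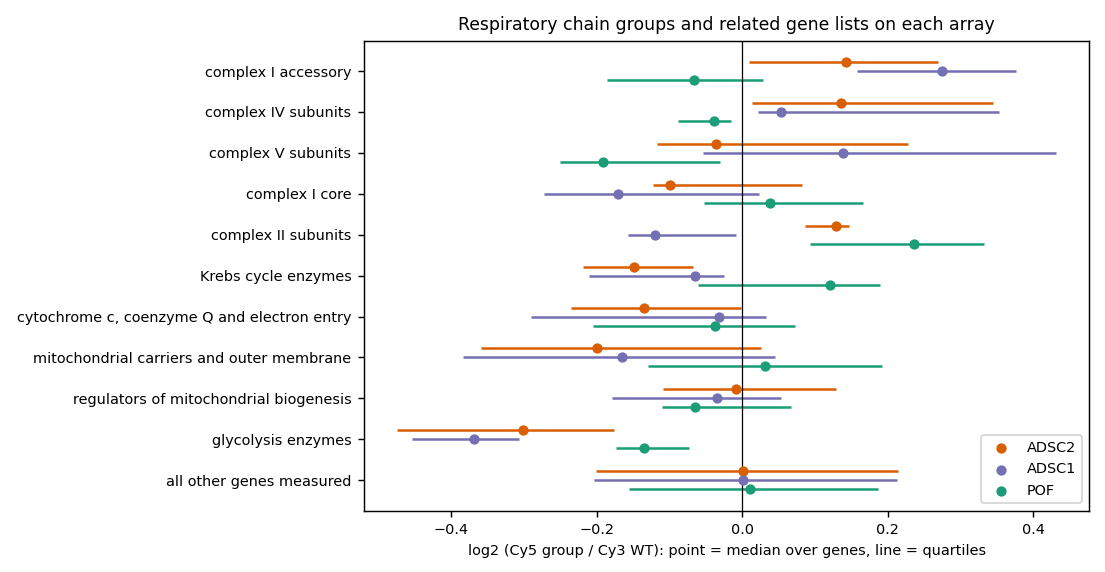
Median log2 ratio over WT (points) and the range from the lower to the upper quartile of the genes (lines) for groups of respiratory chain genes, for related lists and for all other genes measured, on the ADSC2, ADSC1 and POF arrays (orange, purple, green). Accessory subunits of complex I have POF on the left, and core subunits, complex II and Krebs cycle enzymes have POF on the right.

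Markers of ovarian and other cells moved with the groups. Oocyte genes, 8 of 10 above background in WT on all arrays, had a median of -0.14 in ADSC2, 0.56 in ADSC1 and -0.16 in POF. The ADSC1 median includes Bmp15 and Nobox, which the ADSC2 and POF medians do not. Both were above background in the Cy5 channel of ADSC1 alone, so the filter kept them only where they were high. The 8 other oocyte genes were all above WT in ADSC1. Granulosa cell genes (8 of 10 in WT) had medians of -0.74, -0.72 and -0.68, and Amh was not above background. The POF median leaves out Foxl2, so these medians do not rest on the same genes. Gene by gene, 2 of 8 were above 0 in ADSC2 minus POF (median -0.45, background: 50.2% of genes above 0). In ADSC1 minus POF 2 of 8 were above 0 (median -0.09, background: 49.4%). Theca and luteal genes (9 of 9) had medians of -0.01, -0.32 and 0.08. Macrophage genes were above WT in 8 of 8 on each array, with medians of 1.57, 1.44 and 0.89. The WT signal of Csf1r, Fcgr1 or Msr1 was not above background on 1 or more arrays, and without these 3 genes the ranges were 0.83 to 2.44, 0.43 to 2.13 and 0.41 to 1.46. Erythroid genes (3 of 5 measured, with Slc4a1 not above background) had medians of 1.79, 0.64 and 1.80, with Alas2 not above background in the WT channel of the POF array. Oviduct and cilia genes had medians of 0.20, 0.27 and 0.81, where the WT signal of Ovgp1 and Dynlrb2 was above background on no array and that of Wfdc2 on the ADSC1 array alone, so these medians rest in part on dim WT signals. Ovgp1 had ratios of 0.20 in ADSC2, 0.12 in ADSC1 and 4.02 in POF, with its Cy5 signal above background on each array. Its differences from POF, -3.83 and -3.90, were the lowest of all genes measured. Of the oviduct and cilia genes, 0 of 4 measured were above 0 in ADSC2 minus POF and 0 of 5 in ADSC1 minus POF. Control spots outside the members also differed between arrays, and not all in 1 direction. With 48 spots each (SD over spots), those for the ribosomal protein gene Rpl5 averaged 0.14 ± 0.17 in ADSC2, 0.42 ± 0.12 in ADSC1 and -0.09 ± 0.09 in POF. Spots for Gapd, an older symbol of Gapdh, averaged -0.42 ± 0.14, -0.64 ± 0.10 and -0.34 ± 0.08 in the same order, those for Ldha -0.29 ± 0.12, -0.15 ± 0.11 and -0.05 ± 0.07, and those for Actb -0.10 ± 0.16, -0.20 ± 0.13 and -0.20 ± 0.10. The part of these cell types and of the arrays themselves in the values of the members was not tested.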

How the data were processed

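Per the labels, RNA of 3 treated groups (Cy5) was compared with WT RNA (Cy3) on 3 arrays. Per the file headers, the scanner files deposited by the authors give spot intensity (median) with the median and SD of the local background in each colour, before any subtraction or normalization (LuxScan 3.0, per the series' design text). The authors' deposited ratio column is Cy5 over Cy3 without subtraction, and served as a check only. The authors' processed values are log2 ratios whose normalization is not given in the sources used here. They correlated with the subtracted scanner log2 ratios with r of 0.957 (ADSC2), 0.971 (ADSC1) and 0.982 (POF), which settles direction but not scale. Their medians over all probes were 0.02, 0.01 and 0.04. A flag of 100 or -100 has no stated meaning.

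Intensities were background-corrected (normexp, offset 50) and then loess-normalized array by array, giving control and empty spots a weight of 0 (limma 3.58.1, R 4.3.3), which was checked on simulated shifts. Gene values are means over probes of 1 name. A gene was used where a channel exceeded background by 2 background SD on each array of the comparison. Single channels came from Aquantile scaling, which keeps each ratio, so that an error of a ratio enters both channels with opposite signs. Names were updated through RefSeq (80 members by symbol, 4 by synonym). Of 31920 gene probes, 7528 without a name were left out. Precision is limited by 1 array a group. Members, lists and the genes named (the extremes of each comparison and complex, isoform families and genes past 1.5-fold or 2-fold) were chosen with earlier results of these data known. The alternatives were median centring, no background correction, the authors' values, no filter, a filter on both channels and flag, a 3 SD limit, the brightest probe and the Cy5 channel alone. The last changes only differences between arrays, and ratios to WT keep their main value under it. Single genes that are not reported here by name remain in the counts and medians.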

Additional observations from a re-analysis of the deposited data

Results flagged for a closer look

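For 5 of the 78 members measured on all arrays, the ADSC2 and ADSC1 arrays lay on opposite sides of the POF array by at least 0.1 on the log2 scale each. The share of all genes that meets the same rule is not given here, so the count is not read as a result about the members. The WT signal of a member spanned 0.28 at the median over the arrays. With 1 array a group the difference was not tested, and both differences share the POF array. Ndufa10, an accessory subunit of complex I, was at 0.21 in ADSC2 and -0.25 in ADSC1 against POF, and the core subunit Ndufs3 was at 0.15 and -0.28. Sdhb of complex II was at 0.18 and -0.15. Atp5d, a subunit of F1, was at -0.15 in ADSC2 and 0.19 in ADSC1, and Cox7a2l was at -0.10 and 0.18.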

How the results depend on the processing

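No paired analysis was possible because each group has 1 array. Medians of the members against POF kept their sign under all 8 alternatives. Their excess over the median of all genes was 0.07 to 0.26 in ADSC2 against POF and 0.12 to 0.22 in ADSC1 against POF, and against WT 0.07 to 0.47 in ADSC2, 0.12 to 0.44 in ADSC1 and -0.06 to 0.21 in POF.

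Median centring in place of loess moved the members' medians against WT to 0.62 in ADSC2, 0.62 in ADSC1 and 0.54 in POF, with the medians of all genes at 0.15, 0.18 and 0.33. It does not remove a trend with brightness, which loess does. Members at least 1.5-fold above WT then numbered 46, 43 and 30 in the same order, at least 2-fold above WT 5, 8 and 1, and at least 1.5-fold below WT 0, 0 and 0. In ADSC1 against POF it gave 6 members 1.5-fold higher and 3 lower, in ADSC2 against POF 0 higher, and in ADSC2 against ADSC1 1 higher and 0 lower. The share of all genes past the same limits under median centring is not given here, so these counts are not read as a result about the members.

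With the authors' processed values, members at least 1.5-fold above WT numbered 2 in ADSC2, 9 in ADSC1 and 1 in POF, and 2 were as much below WT in POF. In ADSC1, 2 members were 2-fold above and 1 was 2-fold below WT, and in POF 1 was 2-fold above. In ADSC1 against POF 3 members were 1.5-fold lower, 1 was 2-fold higher and 1 was 2-fold lower; in ADSC2 against POF 1 was 1.5-fold higher and 1 was 2-fold lower; in ADSC2 against ADSC1 1 was 1.5-fold higher and 2 were lower. The brightest probe alone gave 1 member 2-fold higher in ADSC2 than in POF (Cox7b), and 1, 2 and 2 members 1.5-fold below WT in ADSC2, ADSC1 and POF. Without background correction 1 member was 2-fold above WT in ADSC1, 1 was 1.5-fold below WT in ADSC2, 1 was 1.5-fold lower in ADSC2 than in POF, and 1 was 1.5-fold higher in ADSC2 than in ADSC1. Without a filter on dim probes 1 member was 1.5-fold lower in ADSC1 than in POF and 2 were 1.5-fold above WT in POF. The shares of all genes under these settings are not given here, so these counts show only how the calls depend on the processing. Where no construction is named, the cause was not tested.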
